A study of Mus musculus with 51 samples.

Results

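Parental H3K4me3 bias was compared between the 2 tissues of the E6.5 mouse embryo at autosomal regions that carried an H3K4me3 peak in both of them. A region was kept where a peak called in extra-embryonic ectoderm (ExE) and a peak called in epiblast (Epi) overlapped by 1 bp or more, and peaks joined by such overlaps were merged. This gave 25936 regions, which held 26625 (65.8%) of the 40468 autosomal ExE peaks and 27458 (82.4%) of the 33329 autosomal Epi peaks. Of these regions, 17140 (66.1%) were informative, with at least 20 allelic reads in at least 1 allele of 1 library of each tissue, and 8796 were not tested.

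The embryos came from reciprocal natural matings of C57BL6/Babr (B6) and CAST/Ei (CAST) mice, written with the maternal strain first. Both reciprocal wild-type crosses, B6/CAST as well as CAST/B6, gave 2 H3K4me3 libraries of ExE and 2 of Epi, which made 8 libraries in all. Epi and ExE were separated by hand at E6.5, and each library came from a pool of 4 Epi or 8 ExE samples, an estimated 2500 cells. Chromatin was digested with micrococcal nuclease and precipitated with an anti-H3K4me3 antibody in an ultra low-input native ChIP-seq. The cross matDKO/CAST, read here without a test, had mothers of mixed B6/129 strain with floxed Dnmt3a and Dnmt3b deleted by Zp3-cre, which acts in the growing oocyte, and CAST fathers. Its embryos inherited no DNA methylation from the oocyte, carried 1 deleted copy of each gene and could still methylate DNA after fertilisation, and 2 libraries per tissue were available.

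H3K4me3 marks active and CpG-rich promoters. At imprinted genes the alleles inherited from the mother and the father differ in chromatin and expression, most often because DNA methylation placed in the oocyte or sperm persists on 1 of them. In some domains a long non-coding RNA made from the paternal allele, such as Kcnq1ot1 or Airn, silences neighbouring genes in cis, and several of those genes are known for imprinting that is restricted to extra-embryonic tissue. The ExE gives rise to the placenta, and the epiblast to the embryo proper.

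The following promoter sequences belong to regions on which the comparison turns: Ascl2 and Igf2r, where the maternal allele was higher in ExE, Sfmbt2, where the paternal allele was higher in ExE, Mkrn3 and Peg12, where the paternal allele was higher in Epi, and Snrpn, where it was higher in both. Each is the 250 bases before a RefSeq start site on GRCm38.p6, 5' to 3', and capitals mark CpG, the dinucleotide that DNA methylation acts on.
Ascl2, chr7:142969265-142969514, minus strand: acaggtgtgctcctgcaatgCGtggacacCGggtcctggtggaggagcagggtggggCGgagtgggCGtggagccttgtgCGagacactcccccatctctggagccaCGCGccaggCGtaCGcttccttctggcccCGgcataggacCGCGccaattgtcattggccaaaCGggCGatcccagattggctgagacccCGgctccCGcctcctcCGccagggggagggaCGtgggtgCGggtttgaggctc
Igf2r, chr17:12769707-12769956, minus strand: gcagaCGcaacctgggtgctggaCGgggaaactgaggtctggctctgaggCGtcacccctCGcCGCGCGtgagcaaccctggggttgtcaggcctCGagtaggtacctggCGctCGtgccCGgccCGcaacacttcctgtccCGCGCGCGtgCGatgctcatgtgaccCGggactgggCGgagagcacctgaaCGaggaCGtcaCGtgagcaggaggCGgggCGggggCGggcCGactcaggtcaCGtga
Sfmbt2, chr2:10370201-10370450, plus strand: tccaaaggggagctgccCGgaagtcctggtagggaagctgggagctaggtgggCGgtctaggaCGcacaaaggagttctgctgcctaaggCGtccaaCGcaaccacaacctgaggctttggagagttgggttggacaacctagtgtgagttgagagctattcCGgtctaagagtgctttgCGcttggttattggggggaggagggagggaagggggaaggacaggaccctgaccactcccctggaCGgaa
Mkrn3, chr7:62420154-62420403, minus strand: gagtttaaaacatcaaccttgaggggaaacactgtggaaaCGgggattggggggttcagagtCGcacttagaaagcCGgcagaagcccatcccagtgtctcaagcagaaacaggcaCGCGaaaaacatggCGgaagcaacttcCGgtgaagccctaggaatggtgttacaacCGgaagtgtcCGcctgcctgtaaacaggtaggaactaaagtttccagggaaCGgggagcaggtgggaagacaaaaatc
Peg12, chr7:62464511-62464760, minus strand: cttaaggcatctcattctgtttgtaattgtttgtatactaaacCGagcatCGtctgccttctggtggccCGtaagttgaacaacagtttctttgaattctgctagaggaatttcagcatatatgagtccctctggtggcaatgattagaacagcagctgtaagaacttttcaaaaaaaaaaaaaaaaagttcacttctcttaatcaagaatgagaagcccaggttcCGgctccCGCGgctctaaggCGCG
Snrpn, chr7:60005200-60005449, minus strand: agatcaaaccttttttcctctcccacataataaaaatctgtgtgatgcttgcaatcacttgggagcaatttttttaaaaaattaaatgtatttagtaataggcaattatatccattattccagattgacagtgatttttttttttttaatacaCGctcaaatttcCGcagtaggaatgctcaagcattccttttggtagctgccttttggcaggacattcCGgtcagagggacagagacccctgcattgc
The Igf2r sequence held 27 CpG sites, Ascl2 19, Mkrn3 10, Sfmbt2 and Peg12 8 each and Snrpn 3. Sfmbt2 has another start in the same region (chr2:10372186-10372435), not printed, with 15 CpG sites, and 27.5% of promoters had as many or more. Of 27025 promoters of the same length, 8.16% had as many CpG sites as Igf2r or more, 19.6% as many as Ascl2, 43.4% as many as Sfmbt2 and Peg12, and 70.4% as many as Snrpn. The median was 6. Promoters of shared regions ran from 0 CpG sites at Slc22a18 to 40 at Grb10, and those of regions confined to ExE from 2 at R74862 to 35 at 1 of the Jade1 starts.

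Allelic reads in autosomal peaks numbered 4250174 to 6821523 per ExE library and 1364507 to 6057440 per Epi library, with the lowest in CAST/B6 Epi replicate 3. Over all peaks the paternal share was 48.4% to 50.8% in every wild-type library. Replicates of a group differed beyond sampling noise, with a chi-square per degree of freedom of 1.69 to 5.88. Each replicate is a pool of embryos, so p-values measure the spread between pools and not between single embryos.

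Across the 17140 informative regions, bias differed between the tissues at 11 regions, which is 0.0642% of those tested (edgeR quasi-likelihood test of tissue by parent, Benjamini-Hochberg adjusted p below 0.05). The maternal allele was relatively higher in ExE at 8 of them and the paternal allele at 3. Within ExE, 93 regions (0.543%) passed the test of parent of origin, 56 with the paternal and 37 with the maternal allele higher. Within Epi, 44 regions (0.257%) passed, 36 paternal and 8 maternal. With the library block 148 regions passed in ExE, 90 paternal and 58 maternal, and 68 in Epi, 43 paternal and 25 maternal. The 93 in ExE fell to 55 without B6/CAST ExE replicate 1 and to 59 without CAST/B6 ExE replicate 1, and the 44 in Epi to 22 without CAST/B6 Epi replicate 2. The ratios of all 4 ExE libraries lay apart from all 4 Epi libraries at 10 of the 11 differing regions, the exception being Igf2, while 1.52% of all informative regions separated in this way. The same 8 libraries chose the 11 regions, so this separation is no added evidence. With each library as a block, which uses the fact that both alleles of a library come from 1 pool, 21 regions differed, including all 11, with the maternal allele relatively higher in ExE at 15 and the paternal allele at 6. The count of 11 fell to 4 without B6/CAST ExE replicate 1, to 6 without B6/CAST ExE replicate 2, to 3 without CAST/B6 ExE replicate 1, to 6 without CAST/B6 ExE replicate 2 and to 2 without CAST/B6 Epi replicate 2.

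**Figure D1:**
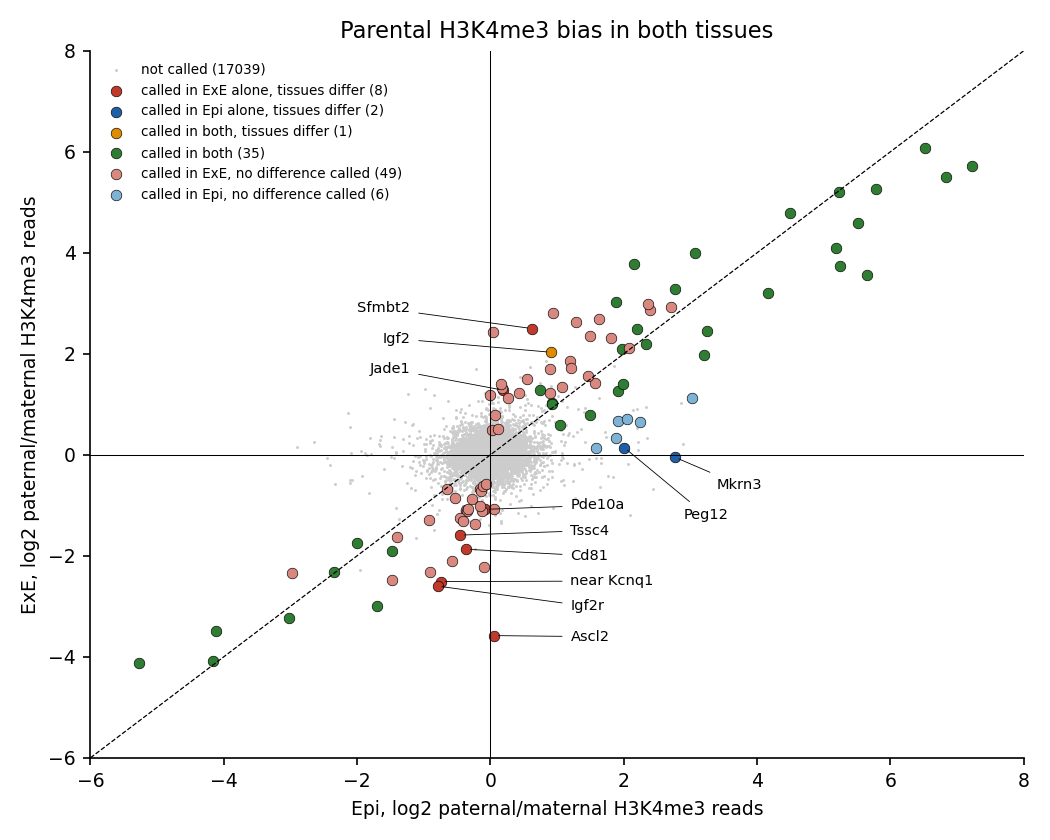
Each point is 1 of 17140 informative regions, with the log2 paternal/maternal ratio of H3K4me3 reads in Epi (x axis) and ExE (y axis), colours giving the class and the dashed line equality. Sfmbt2 and Jade1 sit above the line, Ascl2, Igf2r, Cd81, Tssc4, Pde10a and the region near Kcnq1 below it, and Mkrn3 and Peg12 to the right near 0 in ExE.

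Bias was called confined to ExE where the region passed in ExE and in the tissue difference but not in Epi, which held at 8 regions. It was called confined to Epi under the mirrored criteria, which held at 2 regions, Mkrn3 and Peg12. By DESeq2 0 regions were confined to Epi. A bias in the same direction passed in both tissues at 36 regions, and at 1 of these, Igf2, the tissues also differed. Opposite biases were called in the 2 tissues at 0 regions by edgeR and by DESeq2, and 2 regions had an unadjusted edgeR p below 0.05 in both with opposite signs. A further 49 regions passed in ExE and 6 in Epi without a called difference and are described as undecided, since the data did not place them in 1 tissue or in both. The library block gave 85 and 15, the 49 became 22, 28, 31 and 74 without B6/CAST ExE replicate 1, CAST/B6 ExE replicate 1, CAST/B6 ExE replicate 2 and CAST/B6 Epi replicate 2, and the 6 became 11 to 13 without any 1 of the ExE libraries and 1 without CAST/B6 Epi replicate 2. Failing the test in a tissue does not show a ratio of 1, and at 5 of the 8 regions confined to ExE the 95% interval in Epi still lay on the ExE side of 0.

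Depth behind these classes is given as allelic reads summed over the 4 libraries of a tissue. Regions confined to ExE had a median of 1434 reads in ExE (224 to 4486) and 1395.5 in Epi (189 to 2277), against medians of 720 and 679 over all informative regions. Mkrn3 and Peg12, by contrast, had 207 and 319 reads in ExE and 141 and 191 in Epi. The 35 shared regions with no called difference had medians of 927 reads in ExE (67 to 3710) and 461 in Epi (75 to 2872). The median standard error of the log2 tissue difference was 0.19 in the class confined to ExE, 0.43 in that confined to Epi, 0.45 in the shared class and 0.22 over all informative regions, so the shared regions, whose weaker allele often had few reads, were measured less tightly than a typical region.

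**Figure D2:**
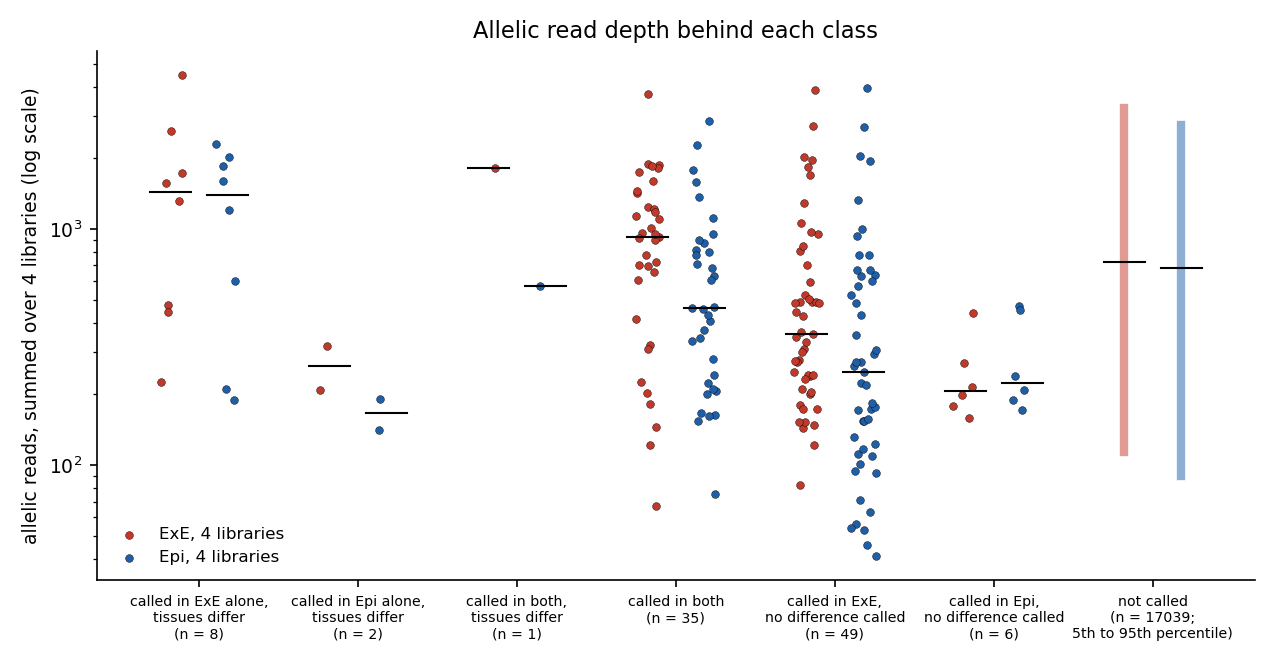
Allelic reads per region, summed over 4 libraries on a log axis, are plotted for ExE and Epi by class, with a point per region, a line at the median and, for regions not called, a bar from the 5th to the 95th percentile. Regions confined to ExE reach 4486 reads in ExE, while Mkrn3 and Peg12 stay at or below 319 in both tissues, and many undecided regions lie lower in Epi than in ExE.

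The 6 regions where the maternal allele was higher in ExE and the difference passed all lay beside Kcnq1ot1 on chromosome 7 or Airn on chromosome 17. Ascl2, a transcription factor that trophoblast needs, had the largest difference. At its start site (chr7:142965500-142970500) the log2 paternal/maternal ratio was -3.78 and -2.02 in the B6/CAST ExE libraries and -3.91 and -4.39 in the CAST/B6 ExE libraries, against -0.56 and 0.42 in B6/CAST Epi and 0.57 and -0.34 in CAST/B6 Epi. All 4 ExE libraries were strongly maternal, while the Epi libraries fell on both sides of 0. The fitted ratio was -3.58 in ExE and 0.06 in Epi (95% interval -0.60 to 0.72), a difference of -3.63 ± 0.51 (SE, edgeR adjusted p = 0.00117). This rested on 224 reads in ExE and 189 in Epi, and total H3K4me3 was similar, at 4.23 ± 0.790 RPKM (SD, n = 4) in ExE and 4.63 ± 1.09 in Epi. The call was lost without CAST/B6 Epi replicate 2.

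Cd81, which encodes a tetraspanin of the cell surface, lies further toward Kcnq1ot1 (chr7:143051500-143059000, with the start site of R74862 in the same region). Its ratios were -2.59, -1.82, -1.56 and -1.49 in the 4 ExE libraries and -0.35, -0.39, -0.39 and -0.25 in Epi. The maternal allele was higher in all 8 libraries, and the difference was one of degree, at -1.51 ± 0.17 with an edgeR adjusted p of 2e-05 on 1717 and 2013 reads. The ExE extent covered 7500 bp and the Epi extent 3500 bp, an overlap of 46.7% of the longer, so the tissues were not read over the same stretch. In pooled tissue, a weaker bias in every cell and a mixture of biased and unbiased cells cannot be told apart. Tssc4, whose product takes part in assembly of the splicing machinery, had its start site in the neighbouring region (chr7:143067000-143071500). It gave -2.04, -1.42, -1.42 and -1.50 in ExE and -0.62, -0.60, -0.23 and -0.37 in Epi. Again every library was maternal and no ExE library reached the Epi range, with a difference of -1.14 ± 0.17 (edgeR adjusted p = 0.00193, 1557 and 1594 reads). The Tssc4 call was lost without CAST/B6 ExE replicate 1 or CAST/B6 Epi replicate 2.

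On the other side of the Kcnq1ot1 promoter, a region 9959 bp from Kcnq1, a potassium channel gene (chr7:143437000-143447500), had ratios of -2.61, -2.17, -2.95 and -2.19 in ExE and -1.15, -0.54, -0.51 and -0.77 in Epi. All libraries were maternal and the ExE libraries more so, by -1.77 ± 0.28 (edgeR adjusted p = 0.00454, 477 and 602 reads). Its call was lost without B6/CAST ExE replicate 1, CAST/B6 ExE replicate 1 or CAST/B6 Epi replicate 2. Total signal here was low, at 1.91 ± 0.505 RPKM in ExE and 2.53 ± 0.545 in Epi (SD, n = 4).

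Igf2r, the receptor that carries IGF2 to lysosomes for degradation, is overlapped in antisense by Airn. At its start site (chr17:12765000-12771000) the ratios were -2.49, -2.25, -2.73 and -2.81 in ExE and -1.37, -0.55, -0.75 and 0.24 in Epi, the last from CAST/B6 replicate 3 with 11 reads. The ExE libraries kept within a narrow maternal range, whereas the Epi libraries ran from a maternal to a slightly paternal ratio. The difference was -1.82 ± 0.34 (edgeR adjusted p = 0.0266, 446 and 209 reads), and the Epi interval of -1.29 to -0.29 excluded 0. Of the 8 libraries, leaving out 7 in turn ended this call, B6/CAST Epi replicate 1 being the exception. Pde10a, a cyclic nucleotide phosphodiesterase, has a start site farther from Airn (chr17:8797500-8805500). It gave -1.48, -0.78, -1.04 and -0.99 in ExE against -0.12, 0.01, 0.01 and -0.32 in Epi, so the ExE libraries were maternal and the Epi libraries close to 0. The difference was -0.99 ± 0.16 (edgeR adjusted p = 0.00454) on 1311 and 1838 reads, and the call was lost without B6/CAST ExE replicate 1, CAST/B6 ExE replicate 1, CAST/B6 ExE replicate 2 or CAST/B6 Epi replicate 2.

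Paternal bias confined to ExE was called at 2 regions. Sfmbt2 encodes a Polycomb group protein that placental development needs (chr2:10362000-10382500). Its ratios were 2.58, 2.03, 2.83 and 2.51 in ExE and 0.87, 0.49, 0.27 and 1.04 in Epi. Every library was paternal and the lowest ExE value stood well above the highest Epi value, with a difference of 1.88 ± 0.19 (edgeR adjusted p = 7.26e-06, 2598 and 1197 reads). The Epi interval was 0.33 to 0.91, so the paternal allele was also the higher in Epi by its interval, although the region did not pass there (adjusted p = 0.0703). Of the 11 regions, only Sfmbt2 also passed within each reciprocal cross taken alone, and it held without each library in turn. Jade1, a PHD finger subunit of a histone acetyltransferase complex, lay in a broad region (chr3:41550000-41592000, 42000 bp in ExE and 29000 bp in Epi). Its ratios were 0.87, 0.75, 1.80 and 1.67 in ExE and -0.27, 0.18, 0.58 and 0.34 in Epi. The tissues did not overlap, but in ExE the CAST/B6 libraries were nearly 1 log2 unit above the B6/CAST libraries. The difference was 1.08 ± 0.20 (edgeR adjusted p = 0.0229, 4486 and 2277 reads), and it was lost without any 1 of the 4 ExE libraries or either CAST/B6 Epi library.

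**Figure D3:**
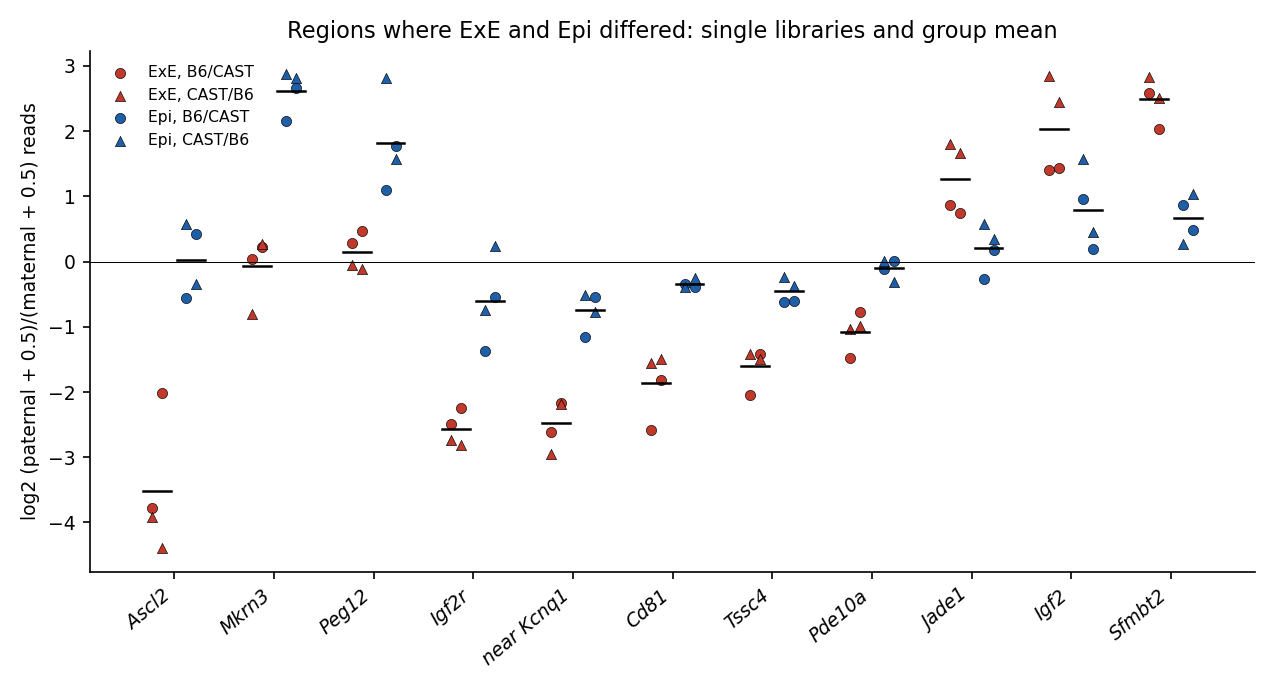
The log2 paternal/maternal ratio of each of the 8 wild-type libraries is plotted for the 11 regions with a tissue difference, with colours for the tissue, symbols for the cross and a line at the mean of the 4 libraries. The ExE and Epi libraries overlap at Igf2 and at none of the other 10 regions.

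Around Kcnq1ot1, from 0.5 Mb before to 2 Mb after it, 32 regions were informative. In ExE 15 of them passed as maternal and 1, Kcnq1ot1 itself, as paternal, against 4 and 1 in Epi. The library block gave 16 maternal regions in ExE and 10 in Epi, and without B6/CAST ExE replicate 1 the ExE count was 10, and without CAST/B6 Epi replicate 2 the Epi count was 1. The median log2 ratio was -1.04 in ExE and -0.36 in Epi. By library the median ran from -1.03 to -0.93 in ExE and from -0.45 to -0.21 in Epi, with no overlap. The maternal calls were not continuous, since Nap1l4 (-0.19 and -0.17 in ExE and Epi) and Cars (-0.09 and -0.12), a histone chaperone and a cysteinyl-tRNA synthetase gene with 2223 and 1546 ExE reads, did not pass in ExE although they lie between Phlda2 and Tnfrsf22. Along the Airn domain, from 8 Mb before to 2 Mb after, 64 regions were informative, and 12 passed as maternal in ExE and 0 in Epi, where DESeq2 also gave 0 and 4 regions had an unadjusted edgeR p below 0.05. The ExE count was 20 with the library block, 5 without B6/CAST ExE replicate 1, 8 without B6/CAST ExE replicate 2, 6 without CAST/B6 ExE replicate 1 and 7 without CAST/B6 ExE replicate 2. Ratios below 0 were found at 53 of the 64 in ExE and at 43 in Epi, where 52.4% and 54.6% of all informative regions had one. Medians there were -0.37 in ExE and -0.08 in Epi, and the library medians of -0.37 to -0.31 and of -0.11 to 0.00 again did not overlap. Over all informative regions the medians were -0.01 in both tissues. The 2 domains held 27 of the 37 maternal calls in ExE, and 4 and 2 of the 8 regions relatively more maternal in ExE, or 5 and 6 of 15 with the library block.

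**Figure D4:**
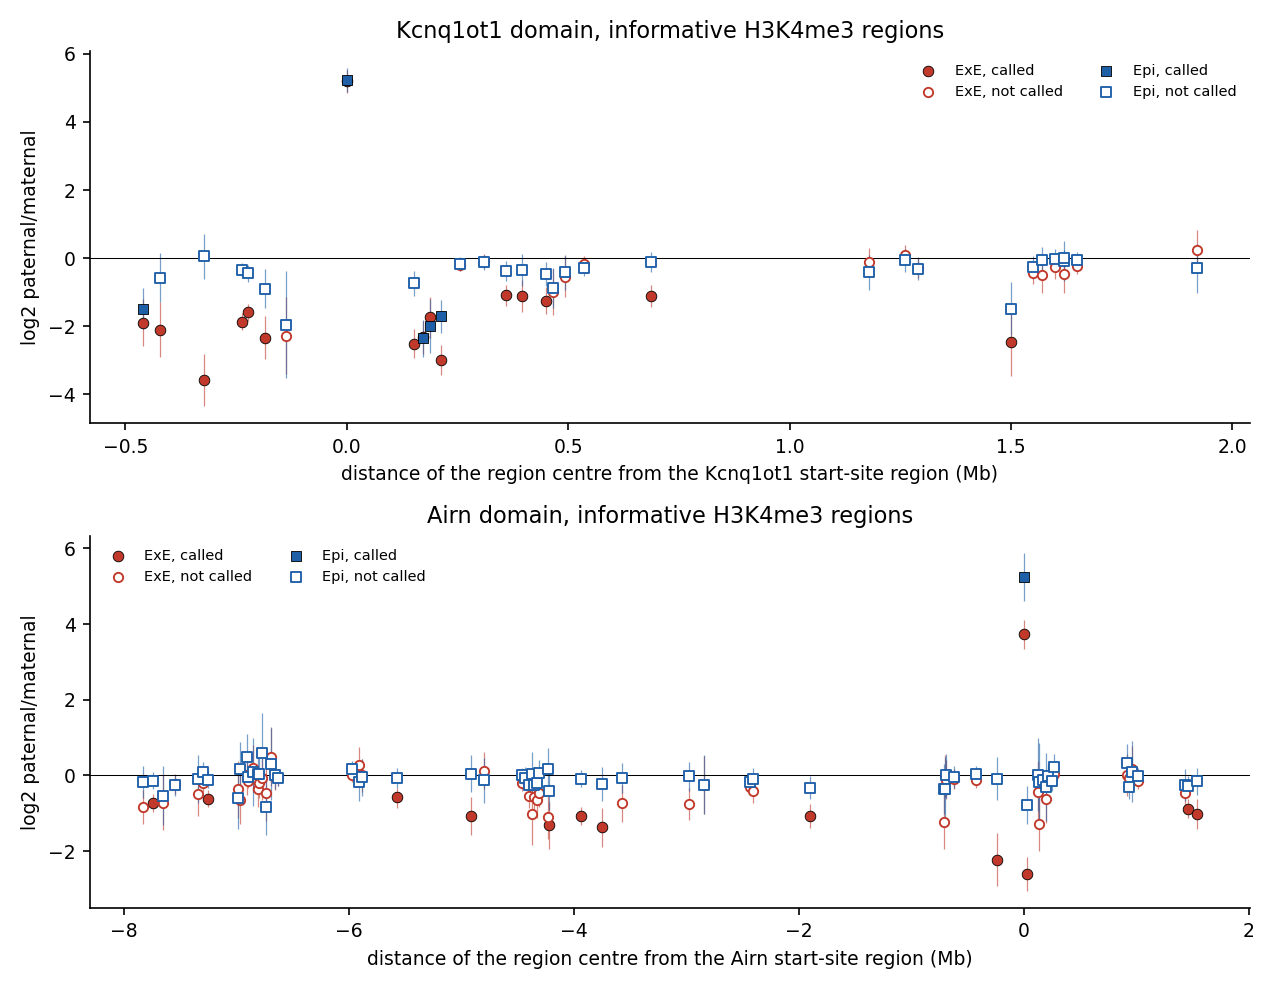
Fitted log2 paternal/maternal ratios with 95% intervals are plotted for ExE and Epi against distance in Mb from the Kcnq1ot1 or Airn region, filled where the test passed. ExE points fall below Epi points over most of both domains (24 of 32 and 51 of 64 regions, against 47.4% of all informative regions), while Kcnq1ot1 (5.20 and 5.23) and Airn (3.73 and 5.25) stand at the top.

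The Snrpn to Peg12 interval on chromosome 7, 2.47 Mb of the mouse counterpart of the Prader-Willi domain, showed the opposite arrangement. All 9 informative regions of the interval passed as paternal in Epi and 1, Snrpn, passed in ExE, and the ratio was higher in Epi at 9 of 9. Without CAST/B6 Epi replicate 2, 2 of the 9 passed in Epi and 2 in ExE, and with the library block 3 passed in ExE. All 8 autosomal regions that passed in Epi but not in ExE lay in this interval, but with the library block 6 of 17 did, and 10 of those 17 were maternal. By DESeq2 it was 7 of 9, without each ExE library in turn 7 of 11 to 13 (13 without B6/CAST ExE replicate 1 or CAST/B6 ExE replicate 1), and without CAST/B6 Epi replicate 2 it was 1 of 1. Mkrn3, a makorin ubiquitin ligase known for restraining puberty, had ratios of 0.04, 0.23, -0.80 and 0.27 in ExE and 2.15, 2.66, 2.87 and 2.81 in Epi (chr7:62418000-62421500). ExE libraries were biallelic or slightly maternal and Epi libraries all strongly paternal, though the last rested on 3 reads. The difference was -2.82 ± 0.50 (edgeR adjusted p = 0.0176), and it was lost without B6/CAST ExE replicate 1 or 2, CAST/B6 ExE replicate 1 or CAST/B6 Epi replicate 2. Peg12, a relative of the FRAT regulators of GSK3, gave 0.28, 0.47, -0.05 and -0.12 in ExE and 1.10, 1.77, 2.81 and 1.58 in Epi (chr7:62461500-62465500). Both tissues had H3K4me3 here, 4.85 ± 0.670 RPKM in ExE and 3.28 ± 1.01 in Epi (SD, n = 4), and ExE was balanced between the alleles (95% interval -0.27 to 0.55). Its difference of -1.87 ± 0.35 (edgeR adjusted p = 0.0304) was lost without any 1 of the ExE libraries, B6/CAST Epi replicate 2 or CAST/B6 Epi replicate 2.

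The other regions of the interval had no called difference in the fit of all 8 libraries without the library block. With the block, Magel2 and the region 0.24 Mb from Snrpn were called. Magel2, a MAGE family gene, had 1.13 in ExE and 3.02 in Epi (edgeR adjusted p of the difference 0.818, and 0.014 with the library block), with 1 Epi library, CAST/B6 replicate 2, at 6.44 and the other 3 at 1.05 to 2.17. The region within Ndn gave 0.13 and 1.59, and the one at 0.24 Mb gave 0.66 and 1.91 (0.00121 with the block). The 3 regions at 0.39, 0.49 and 0.62 Mb, which no gene names, also moved with the cross. At 0.49 Mb the B6/CAST libraries read -1.14 and -0.37 and the CAST/B6 libraries 5.80 and 2.32 in Epi, and -1.45, -2.18, 2.47 and 2.50 in ExE, so the B6 allele was the higher in both tissues and the parental ratio there is the mean of 2 unlike crosses. Summed over the 8 regions other than Snrpn, the paternal share was 52.7%, 52.5%, 67.2% and 62.2% in the ExE libraries and 70.2%, 74.2%, 91.5% and 76.8% in Epi. In matDKO/CAST the same sum was 47.5% and 54.1% in ExE and 47.2% and 48.5% in Epi.

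**Figure D5:**
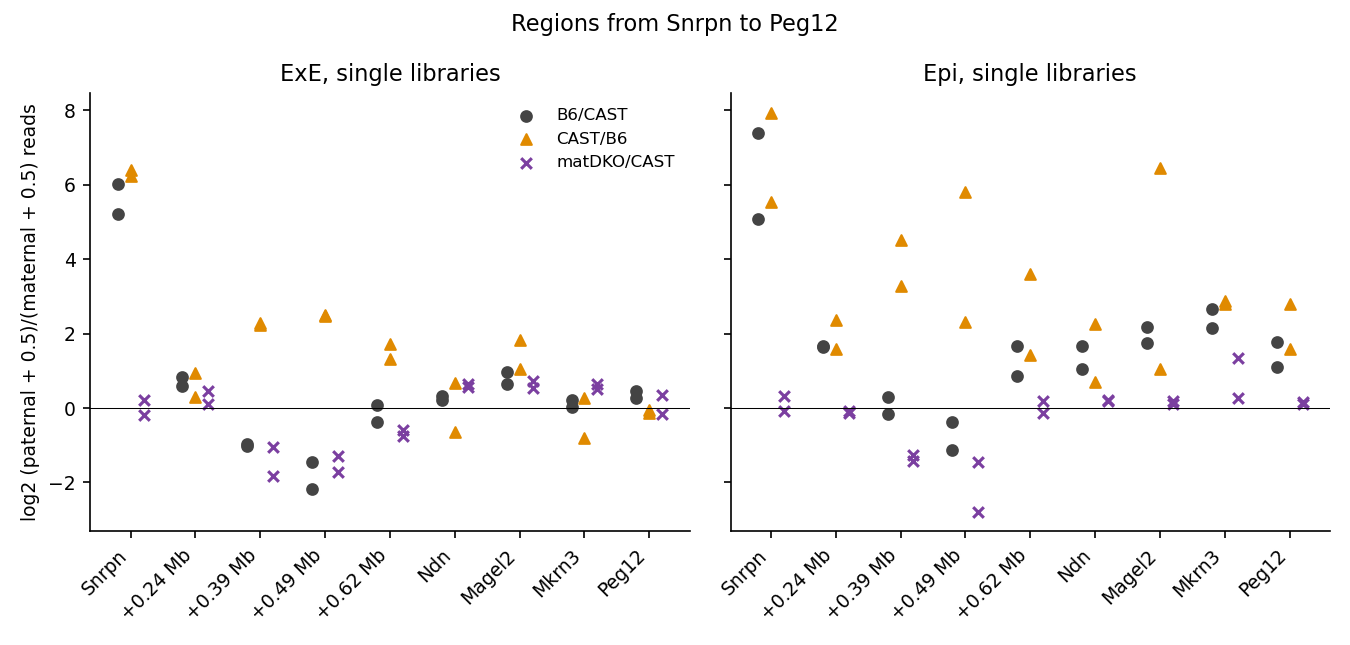
Log2 paternal/maternal ratios of the 9 informative regions from Snrpn to Peg12 are plotted for ExE and Epi, with a point per library and a symbol per cross, matDKO/CAST included. Snrpn is above 5 in all 8 wild-type libraries, and at Mkrn3 and Peg12 the 4 wild-type Epi libraries lie above the 4 ExE libraries.

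Shared bias was found at 36 regions, 28 paternal and 8 maternal, and 32 of them had all 8 libraries in the called direction. The ratio was larger in Epi at 22 and in ExE at 14. Snrpn, whose promoter carries the maternal methylation imprint of its domain, had 6.07 in ExE and 6.52 in Epi, on 1417 and 2268 reads. Kcnq1ot1 gave 5.20 and 5.23, Mest, a hydrolase-fold gene, 4.78 and 4.50, and the Peg10 and Sgce promoter, shared by a retrotransposon-derived placental gene and a sarcoglycan, 2.09 and 1.98. Among maternal regions, the non-coding RNA H19 had -4.09 and -4.16 and the cell cycle inhibitor Cdkn1c -2.32 and -2.35. At these 6 regions the tissues differed by at most 0.46 log2 units. Slc38a4, an amino acid transporter gene, had 4.09 and 5.18 on 1731 and 812 reads, and Impact 4.59 and 5.52 at its start site. Bias was smaller at Mcts2, a retrogene within H13, with 1.41 and 1.99, and at Zfp64, a zinc finger gene, with 1.29 and 0.74. The region at chr2:169004500, which no gene names, had 3.02 and 1.88. The crosses disagreed on the tissue difference there, with -0.80 from B6/CAST but 3.07 from CAST/B6, and likewise at Slc38a4, with 1.00 and -3.18. A region within Impact was called at 0.79 and 1.50, but it was maternal in the B6/CAST libraries of both tissues (-0.49 to -0.44 in ExE) and paternal in the CAST/B6 libraries (1.84 to 2.29).

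Equal bias was bounded tightly at few regions. The 95% interval of the tissue difference stayed within 1 log2 unit of 0 at 8 of the 35 shared regions with no called difference, and at 14 of the 35 the unadjusted p of the difference was below 0.05. The widest gap in fitted ratios was at Inpp5f, a phosphoinositide phosphatase gene, with 3.56 in ExE and 5.65 in Epi at its region chr7:128687000-128691500. Another Inpp5f start, in a separate region, had 0.03 and 0.04 on 2622 and 1945 reads. Peg13 gave 5.71 and 7.23, Airn 3.73 and 5.25, and the Peg3 and Usp29 promoter, a zinc finger gene and a deubiquitinase, 5.51 and 6.83. Phlda2, which restrains placental growth, had -2.99 in ExE and -1.70 in Epi, and the non-coding RNA Meg3 -4.12 and -5.27. None of these differences passed the test over all regions (edgeR adjusted p 0.818 to 1). Commd1 and Zrsr1 had the most reads of the class, 3710 and 2872, and ratios of 1.03 and 0.92, in a region that held the start sites of both the retrogene Zrsr1 and its host gene Commd1.

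Igf2, the fetal growth factor, was the shared region with a called difference (chr7:142652500-142672000, with Igf2os). Its ratios were 1.40, 1.43, 2.84 and 2.44 in ExE and 0.96, 0.19, 1.58 and 0.45 in Epi. All 8 libraries were paternal, but the highest Epi value exceeded the B6/CAST ExE values, and in both tissues the CAST/B6 mean was the higher. The difference was 1.12 ± 0.22 (edgeR adjusted p = 0.047), and 7 of the 8 libraries ended the call when left out in turn. Total H3K4me3 was 9.35 ± 1.13 RPKM in ExE and 4.54 ± 1.14 in Epi (SD, n = 4), with no overlap between the tissues.

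The 49 undecided ExE regions fell into 23 with the maternal and 26 with the paternal allele higher, and 48 of the 49 had the same sign in Epi. Of the maternal ones, 7 lay in the Kcnq1ot1 and 10 in the Airn domain. Their medians were -1.11 in ExE and -0.35 in Epi on 487 and 522 reads. All undecided ExE regions were chosen as failing the test in Epi, so a weaker median there follows in part from that choice. Slc22a3, an organic cation transporter known for maternal expression in placenta, had -2.23 and -0.09 (edgeR adjusted p of the difference 0.0866, and 0.00174 with the library block). Osbpl5, Tnfrsf22 and Tnfrsf23, an oxysterol-binding protein and decoy death receptors, had -1.25, -1.09 and -1.11 in ExE and -0.46, -0.37 and -0.35 in Epi, and Kcnq1 itself -2.33 and -0.90. On the Airn side, Dact2, Smoc2 and Arid1b gave -0.88, -1.02 and -0.72 in ExE and -0.28, -0.15 and -0.14 in Epi, and Arid1b passed with the block (edgeR adjusted p = 0.0239).

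Undecided paternal regions were read less deeply in Epi. Their medians were 1.63 in ExE and 1.00 in Epi on 305.5 and 142 reads, and total H3K4me3 was lower in Epi than in ExE at 21 of 26, against 5 of the 23 maternal ones. At 15 of the 26 the Epi interval included the ExE estimate, compared with 5 of the 23 maternal regions. Several lay beside regions already named. Platr4 and 2400006E01Rik, upstream of Jade1, had 1.23 and 2.32 in ExE and 0.43 and 1.81 in Epi, and 3 regions from chr15:97068500 to chr15:97145500, beyond Slc38a4, had 1.40, 2.99 and 1.71 in ExE and 0.16, 2.37 and 1.21 in Epi. Several of these values are means of unlike crosses. In Epi the B6/CAST and CAST/B6 means were -1.55 and 1.89 at Platr4, -0.17 and 3.36 at 2400006E01Rik, 3.28 and -2.34 at chr15:97068500 and 2.91 and 0.27 at chr15:97125000. Gnas with Nespas, the gene of a G-protein subunit and its antisense RNA in 1 region of 19500 bp, had 1.12 in ExE and 0.26 in Epi on 2012 and 2696 reads (edgeR adjusted p of the difference 0.0698, and 9.55e-07 with the library block). The region holds start sites of both genes, and opposite biases at separate promoters would cancel in its summed ratio. Sall1 and Smoc1, a zinc finger and a secreted matrix gene, were at 0.50 and 0.79 in ExE and 0.03 and 0.07 in Epi, and Sall1 passed with the block (edgeR adjusted p = 0.00462). A separate region near Smoc1 (chr12:81017000) had a shared paternal bias. Its B6/CAST and CAST/B6 means were 1.99 and 5.59 in ExE and 0.51 and 3.15 in Epi.

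Known imprinted genes were read in 5 lists, which were drawn up with results of these data known. Of 28 genes with maternal germline methylation or paternal expression, 27 were informative in 24 regions, where 13 regions passed as paternal in ExE and 16 in Epi and the tissue difference passed at 2, Mkrn3 and Peg12, with a median difference of -0.25. With the library block it passed at 4, Magel2 and Gnas with Nespas being added. H13, Nnat, Gpr1, Cdh15, the Trappc9 promoter and the Inpp5f start with a ratio near 0 passed in neither tissue. In the Kcnq1 list, 10 of 11 informative regions passed as maternal in ExE and 3 in Epi (6 with the library block), with a median difference of -0.79. For the Igf2r and Airn list these were 8 and 0 of 10 by edgeR, with a median of -0.58, and in Epi DESeq2 gave 0 and 3 regions had an unadjusted edgeR p below 0.05. Of 11 loci with the non-canonical imprinting that is tied to maternal H3K27me3, the study chose several on these samples. The list is therefore no independent evidence of direction. In it 9 regions passed as paternal in ExE and 4 in Epi, with a median difference of 0.48. Calls of the tissue difference with the block rose from 2 to 5 in the Igf2r and Airn list and from 2 to 4 in the non-canonical list. At loci with paternal germline methylation H19 and Meg3 were maternal and Igf2 paternal in both tissues, while Dlk1, Dio3 and Rasgrf1 passed in neither. Other listed genes with shared bias were Plagl1 at 5.27 and 5.78, Zdbf2 at 1.27 and 1.92 and Platr20 at 3.20 and 4.17. Zdhhc14 (-0.61 and -0.11), Rps6ka2 (-0.58 and -0.06) and the region in 2410003L11Rik (1.50 and 0.55) were undecided, and the starts of Qk, Gab1 and B130034C11Rik passed in neither tissue. That holds for the start sites alone, since Gab1 and B130034C11Rik have 2 regions each. The median difference over all informative regions was 0.01.

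H3K27me3 and H3K36me3 were read over whole peaks of the same tissue that overlapped the same regions, as measures on which the classes do not rest. Per the study's methods, chromatin samples were divided between the antibodies, so the marks do not come from separate sets of embryos. H3K27me3 is the repressive mark of Polycomb complexes, and H3K36me3 marks transcribed gene bodies. At all 8 regions confined to ExE the H3K27me3 ratio in ExE was opposite in sign to that of H3K4me3 in every library, down to 52 reads at Jade1. The same held at 17 of 18 undecided maternal ExE regions with a ratio, 6 of 16 undecided paternal ones, 6 of 7 shared maternal and 4 of 11 shared paternal regions, so it was not a trait of the confined class alone. The 8 regions lay in 6 distinct H3K27me3 peaks, and 56.9% of all informative regions overlapped such a peak in ExE. Ascl2, Cd81 and Tssc4 shared 1 long peak with a log2 paternal/maternal ratio of 1.78 (1.70 to 1.82 over the 4 libraries), and Pde10a lay in one with 2.44 (2.25 to 2.60). Of the 6 maternal regions, 5 had a ratio in Epi, and 4 of these were paternal in every Epi library, Ascl2 at 1.42 (1.14 to 1.63), Cd81 at 1.71 on 167 reads, the region near Kcnq1 at 2.32 (2.39 in ExE) and Igf2r at 0.46 (0.34 in ExE). Pde10a was the exception, with 0.21 (-0.07 to 0.44). In Epi the H3K27me3 peak over Ascl2 thus leaned to the paternal allele as a whole, while H3K4me3 at the Ascl2 region was balanced. The H3K27me3 ratio of that region alone was not read.

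At Sfmbt2 the H3K27me3 ratio was -1.32 in ExE and -0.70 in Epi, with H3K36me3 at 2.55 (2.23 to 3.00) in ExE and 0.26 (-0.34 to 0.85, 68 reads) in Epi. Jade1 had H3K36me3 at 1.00 (0.33 to 1.43) in ExE and 0.04 (-0.04 to 0.15) in Epi on 2191 and 2154 reads. Igf2r had -0.28 (-0.50 to -0.12) in ExE and -0.30 (-1.28 to 0.27) in Epi on 2665 and 113 reads, means that were nearly equal, and Tssc4 -1.87 (-2.75 to -1.38) and -1.10 (-2.81 to -0.36) on 87 and 75 reads, with overlapping libraries. The other 4 regions confined to ExE had no H3K36me3 peak in either tissue. At Mkrn3 and Peg12, which shared 1 H3K27me3 peak, the ratio was 1.03 (0.53 to 1.52) in Epi, on the same side as H3K4me3, and 0.23 (0.09 to 0.46) in ExE, where the fitted H3K4me3 ratios were -0.05 and 0.14.

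The matDKO/CAST libraries, 2 per tissue from mothers of another strain mixture, were compared without a test. Per the study's methods, SNPs that 129 shares with CAST were left out for these libraries, and reads left unassigned between B6 and CAST went through a further split between 129 and CAST, whose 129 reads were added to the maternal set. Their ratios were thus not made in the same way as those of wild type, and the effect of this was not tested. In ExE the mean log2 ratio was 0.21 at the region near Kcnq1 (26 and 20 reads in the 2 libraries), -0.13 at Tssc4, -0.25 at Igf2r (34 and 21 reads) and -1.30 at Ascl2 (22 reads in all), closer to 0 than in any wild-type library. Both libraries were still maternal at Ascl2, and at Cd81 and Pde10a the means of -1.59 and -0.81 lay within the wild-type range. Paternal bias remained at 2.78 at Sfmbt2, 0.97 at Jade1 and 1.82 at Igf2. In Epi, Mkrn3 gave 0.28 and 1.34 and Peg12 0.15 and 0.10, below the wild-type values in both libraries. For the 27 shared paternal regions with no called difference the median was 1.99 in B6/CAST, the cross of the same orientation, and 0.02 in matDKO/CAST in ExE, and 1.80 and 0.16 in Epi, with 5 of 27 past 1 in matDKO/CAST in each tissue.

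Reciprocal crosses separate parent from strain, and all 11 tissue differences had the same direction in both crosses. Among the 93 regions called in ExE, 87 had the called direction in the mean of each cross, and 6 rested on 1 cross, among them the regions within Actn1 (-0.18 in B6/CAST and 4.07 in CAST/B6) and within Micu2. In Epi this held at 42 of 44, and the region at 0.49 Mb from Snrpn was 1 of the 2 exceptions. Even where both crosses had the same direction the sizes could differ, as at 1700017J07Rik, with 0.31 and 4.62 in ExE and 0.26 and 5.66 in Epi.

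The tissue labels were read against H3K4me3 within 1000 bp of the start sites of marker genes. All 12 epiblast markers were higher in Epi, 8 without overlap, against 5.05% of 51121 autosomal gene starts, such as Pou5f1 at 45.2 RPKM in Epi and 7.88 in ExE. Of 12 ExE markers 8 were higher in ExE, 4 without overlap, against 4.86% of gene starts, and 1, Esrrb, was higher in Epi without overlap. Among the 4 were Cdx2 at 28 RPKM in ExE and 11.9 in Epi and Bmp4 at 19.3 and 5.54, while Elf5 and Esrrb were below 1 RPKM in both tissues. Visceral endoderm markers were higher in ExE at 10 of 12, 5 without overlap, and 1 was higher in Epi without overlap, with summed levels of 77.4 to 127 RPKM per ExE library and 57.4 to 96.6 per Epi library. The maternal decidua list summed to 42 to 61.8 in ExE and 51.8 to 79.6 in Epi, with 4 of 10 higher in ExE, 1 without overlap, and 2 higher in Epi without overlap. The blood and endothelium list summed to 23.5 to 31.2 and 15.1 to 25.9, with 9 of 10 higher in ExE, 2 without overlap. In these lists Prl8a2, Ptprc and Hbb-bt were below 1 RPKM in both tissues, while the highest were Kdr at 20.2 in ExE and 17.5 in Epi, Bmp2 at 17.4 and 20.5 and Wnt4 at 10.4 and 13.3. Median log2 ratios at the informative regions of these 5 lists were between -0.09 and 0.05 in both tissues, and the part of other cell types in the tissue differences was not tested.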

How the data were processed

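H3K4me3 was measured by ultra low-input ChIP-seq in 8 wild-type libraries of E6.5 ExE and Epi. Reads were trimmed with Trim Galore 0.4.4 and aligned with Bowtie2 2.3.2 to GRCm38, with these versions and the build as in the submitters' processing notes. Per the study's methods, strain SNPs were masked and reads assigned to B6 or CAST with SNPsplit. The authors called peaks with chromstaR on pooled replicates and deposited raw allelic read counts per peak, which were used as they stand. They also deposited peak lists with a score per peak, which gave peak extents only, and RPKM values in 1 kb windows, which gave total levels. The name given to a peak disagreed with its own coordinate columns for 17.9% of ExE and 21.9% of Epi autosomal peaks, and the coordinate columns were used.

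Peaks of the 2 tissues overlapping by 1 bp were merged, and counts of each tissue were summed over its own peaks. Regions took the name of genes whose start site they held, otherwise of the nearest gene within 10000 bp ("in" where the region lies within the gene), otherwise none. edgeR 4.0.16 in R 4.3.3 fitted 16 allele columns (TMM) with terms for cross and tissue, strain of the allele within tissue and parent of the allele within tissue, by quasi-likelihood, two-sided, with Benjamini-Hochberg adjustment over 17140 regions at 0.05. Ratios of single libraries had 0.5 reads added to each allele. Intervals are at 95% and, like the standard errors, cover the spread between libraries as the model estimates it. Deviations of the 2 alleles of a library from their group means correlated at 0.25 to 0.54, both alleles coming from 1 pool, so the library block is printed beside counts of calls that it changes by over 1.5 times.

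Members and gene lists were chosen with earlier results of these data known. The limits of the Kcnq1ot1 and Airn windows were set by hand, and the counts and medians within them depend on these limits. Named regions were the 15 largest differences in each class confined to a tissue, all shared regions with a called difference, the 15 other shared regions with most reads, and regions at listed imprinted genes, of which 1 is not reported here. Further undecided regions, and those used to show cross effects, were named after their values were seen. Alternatives were another normalization, filter, overlap, threshold, tool (DESeq2 1.42.0), unit of comparison and depth, a library block, each library left out in turn, and each cross alone. Promoter sequences are from RefSeq on GRCm38.p6, with 66 start sites of 51 genes matched. H3K27me3 and H3K36me3 ratios used deposited counts over overlapping peaks and needed at least 20 reads.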

Additional observations from a re-analysis of the deposited data

Results flagged for a closer look

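The effect of parent of origin differed between ExE and Epi, by the edgeR test of tissue by parent, at 11 regions. The log2 differences, ExE minus Epi, were -3.63 at Ascl2, -2.82 at Mkrn3, -1.87 at Peg12, -1.82 at Igf2r, -1.77 at the region near Kcnq1, -1.51 at Cd81 and R74862, -1.14 at Tssc4, -0.99 at Pde10a, 1.08 at Jade1, 1.12 at Igf2 and Igf2os and 1.88 at Sfmbt2. Adjusted p-values ran from 7.26e-06 at Sfmbt2 to 0.047 at Igf2, and standard errors from 0.16 at Pde10a to 0.51 at Ascl2. All 11 regions had the same direction in both crosses, and no explanation was tested. Groups of 2 libraries per cross and tissue cannot show which library of a group is the outlying one, but each library was left out in turn.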

How the results depend on the processing

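Sfmbt2 kept its call under 18 of 18 alternatives and Cd81 under 17 of 17, Ascl2 under 16 of 17, Tssc4 under 16 of 18, Pde10a and the region near Kcnq1 under 14 of 18, Mkrn3 under 11 of 17, Jade1 under 9 of 18, Igf2r under 9 of 17, Peg12 under 8 of 17 and Igf2 under 5 of 18. All kept their direction. These counts follow the call of a tissue difference and not the class, confined or shared, in which a region was placed. Against 11 differing regions, 8 confined to ExE, 2 confined to Epi and 36 shared, the library block gave 21, 12, 2 and 51, and its 10 added regions included Gnas with Nespas, Slc22a3 and Magel2. A minimum of 20 reads in every library, or an adjusted p below 0.01, gave 6 differing regions and 0 confined to Epi. The same read minimum gave 49 regions called in ExE against 93 and 28 in Epi against 44, with 17 and 2 undecided against 49 and 6, 7 and 1 maternal beside Kcnq1ot1 against 15 and 4, 7 in ExE beside Airn against 12, and 3 in Epi between Snrpn and Peg12 against 9. DESeq2 gave 8 and 0, losing Jade1, Mkrn3 and Peg12. With ExE thinned to the depth of Epi, 1 region was confined to Epi. Reciprocal-best peak pairs left 5 confined to ExE, and each cross on its own left 1 differing region. Leaving out 1 library gave 2 to 12 differing regions, 2 to 10 confined to ExE, 0 to 2 confined to Epi and 21 to 40 shared, with the fewest differing and shared regions without CAST/B6 Epi replicate 2. Fewer libraries or regions enter by construction where a library is left out or a filter is stricter, and the cause of the other changes was not tested. Of 2584 single values under an alternative, 2286 kept direction and side of the threshold, 297 lost their call and 1 reversed, the ExE ratio in Ccdc40, at -0.05 with reciprocal-best pairs. The 95% interval of the Epi ratio reached a median of 0.33 log2 units to either side over all informative regions and 0.66 at the undecided ExE regions.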
